A study of Mus musculus with 8 samples.

Results

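The LIF-STAT3 and Msx genes of uterine receptivity were described here as 7 genes: Lif, Lifr, Il6st, Stat3, Socs3, Msx1 and Msx2. They were chosen by name as regulators of the implantation window, with earlier results of these data known. All 7 are among the 24963 genes of the expression table, and all 7 passed the filter for testing, a mean of at least 0.5 FPKM (fragment numbers corrected for gene length and library total) over the 8 libraries, as did 14323 genes in all. The study compared 4 control and 4 mutant libraries of whole uterine tissue at gestation day (GD) 3.5 by RNA-seq, to ask how loss of Nr2f2, the gene of the orphan nuclear receptor COUP-TFII, changes the transcriptome as the uterus prepares for implantation. The controls, Nr2f2 f/f, carried floxed Nr2f2 alleles and no Cre and are labelled WT. The mutants, Nr2f2 d/d, carried the same floxed alleles and a Cre knocked into 1 Pgr allele (Pgr Cre/+; Nr2f2 f/f), which acts in the cells that express the progesterone receptor and leaves Nr2f2 intact in the other cells of the tissue. Both groups therefore shared the floxed alleles but differed in Cre and in 1 Pgr allele as well as in Nr2f2, and these cannot be told apart. The strain is given as C57B6/J, and the females were 8 weeks old at mating by the labels, while the study's methods give a wider range of ages. The males were vasectomized, so the uteri held no embryo. The labels do not say that each library came from a separate mouse, and p-values measure only the spread between these libraries.

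LIF is a cytokine that the uterine glands secrete in response to estrogen when the mouse uterus becomes receptive. It binds a receptor of LIFR and gp130, the product of Il6st, which several other cytokines also use. JAK kinases bound to gp130 then phosphorylate STAT3, which enters the nucleus, and SOCS3 is made in response and switches the receptor off. MSX1 and MSX2 are homeobox transcription factors of the uterine epithelium whose levels normally decline as implantation starts, and mice without both fail to implant embryos. NR2F2 itself is most abundant in the uterine stroma.

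The start regions of the members were searched for 2 kinds of letters, because Lif and Socs3 varied together between the libraries and because Nr2f2 encodes a DNA-binding receptor. RefSeq (GRCm38.p6, which is mm10) gave 8 windows for the 7 members, each from 250 bases before to 50 bases after a start. The letters searched on both strands were TTCNNNGAA, bound by STAT proteins, which 8.3% of all 32851 RefSeq windows held, and the letters AGGTCA (16.3%) and GGGTCA (13.7%), to which nuclear receptors bind. Matches before the start were found in Socs3, Msx1 and Lifr, and each is shown on the strand of its gene with the matched letters in capitals.
Socs3: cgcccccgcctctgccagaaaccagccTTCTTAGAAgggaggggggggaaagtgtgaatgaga
Msx1: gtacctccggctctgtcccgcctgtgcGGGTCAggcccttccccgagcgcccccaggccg
Lifr, upstream start: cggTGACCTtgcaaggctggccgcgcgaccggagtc
Lifr, downstream start: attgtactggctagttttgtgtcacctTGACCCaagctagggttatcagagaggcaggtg
The Socs3 stretch lies at chr11:117969485-117969547 on the minus strand, with its match 154 bases before the start. The Msx1 stretch lies at chr5:37824703-37824762 on the minus strand, with its match 150 bases before the start. The Lifr stretches lie on the plus strand at chr15:7129322-7129357 and chr15:7140328-7140387, and their matches, 247 and 187 bases before 2 different starts, are on the opposite strand and so read TGACCT and TGACCC. The window of Il6st held GGGTCA after its start, and those of Lif, Stat3 and Msx2 held none of the letters searched. All starts in this paragraph are RefSeq starts. The Socs3 stretch and both Lifr stretches lie inside the spans given below for these genes, which come from another annotation, GENCODE. A match is a description of the letters in this window and not a bound site.

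Nr2f2 (mm10 chr7:70351944-70366735, minus strand) was lower in every Nr2f2 d/d library, and the libraries thus matched their labels. Its level was 25.3, 21.8, 25.7 and 23.5 FPKM in the controls (replicates 1 to 4) and 9.66, 9.42, 6.90 and 9.74 FPKM in the mutants (replicates 1 to 4). The log2 fold change was -1.39 ± 0.118 (SE) with an adjusted p of 0.00549 by limma, and the mutant mean was 0.371 of the control mean in whole tissue. An antisense gene, B130024G19Rik, overlaps 7.46% of its exon bases, and the strand setting of the counting is not known. The library totals recovered from the values ran from 61100000 to 92250000 fragments, at which 3 fragments on a gene of 1 kb are worth 0.0325 to 0.0491 FPKM. Nr2f2 f/f replicate 2 stood apart, being the highest or lowest of the 8 libraries at 50.5% of the genes tested, against 39.6% for Nr2f2 d/d replicate 3 and 11.2% to 24.1% for the other 6. Its mean correlation with its own group over the genes tested was 0.944, against 0.960 to 0.978 for the other 7 libraries. It had 1444 FPKM of Prss29, a gland protease whose fragments may be shared with its near-identical neighbour Prss28, against 2.05 to 244 FPKM in the other controls. The labels give it the same gestation day as the others, which no value here checks. The comparisons of the members are therefore given with and without Nr2f2 f/f replicate 2. The tissue carried uterine markers, with 12 stromal markers summing to 1753 to 1982 FPKM in the controls and 2316 to 3948 FPKM in the mutants (6 of 12 with a positive and 6 with a negative log2 fold change, 1 called higher), and 10 smooth muscle markers to 1330 to 1871 and 1072 to 2609 FPKM. The 8 oviduct markers, several of which the uterus also expresses, summed to 112 to 137 FPKM in the controls and 143 to 162 FPKM in the mutants, and Foxj1, of ciliated cells, was 2.21 FPKM in Nr2f2 d/d replicate 3 and 0.120 to 0.304 FPKM in the other libraries. The 10 endothelial markers were all lower in Nr2f2 d/d without overlap, 7 of them past the adjusted threshold, and summed to 340 to 450 FPKM in the controls and 207 to 260 FPKM in the mutants. Of the T and NK cell markers, 7 of 7 tested had a positive log2 fold change (median 0.65, 1 called), with sums of 57.2 to 78.1 and 81.1 to 251 FPKM and Cd4 and Cd8a under the filter. Of the neutrophil markers, 4 of 5 tested did and 1, Retnlg, did not (median 2.16, 0 called by limma, and, with a fold change of 1.4 at an unadjusted p of 0.05, 3 higher and 1 lower), with overlapping sums of 15.7 to 429 and 73.1 to 939 FPKM, mostly Ltf, which the epithelium also makes, and Mpo, Camp and Ngp near 0. In whole tissue, fewer cells of a type and less RNA per cell cannot be told apart.

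At an adjusted p of 0.05, 0 of the 7 members passed (limma, Benjamini-Hochberg over all genes tested), a threshold that 2.62% of all genes tested passed. At an unadjusted p of 0.05, 2 members passed, Il6st with a lower mean and Msx2 with a higher mean in Nr2f2 d/d, a threshold that 21.2% of all genes passed. With a fold change of at least 1.4 added, only Msx2 of the 7 passed, where 8.8% of all genes did. This is the pair of thresholds that the study set on its own test of counts. In 0 of the 7 members did the groups not overlap, against 15.4% of all genes. Without Nr2f2 f/f replicate 2, 0 of 7 passed the adjusted threshold and 2.43% of all genes did. In the same 7 libraries, Lif and Socs3 were lower in Nr2f2 d/d at an unadjusted p of 0.05 and a fold change of 1.4, where 3.89% of all genes were. Lif, Socs3 and Il6st lay lower in all 4 Nr2f2 d/d libraries than in the 3 remaining controls, which held for 13.2% of all genes.

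**Figure D1:**
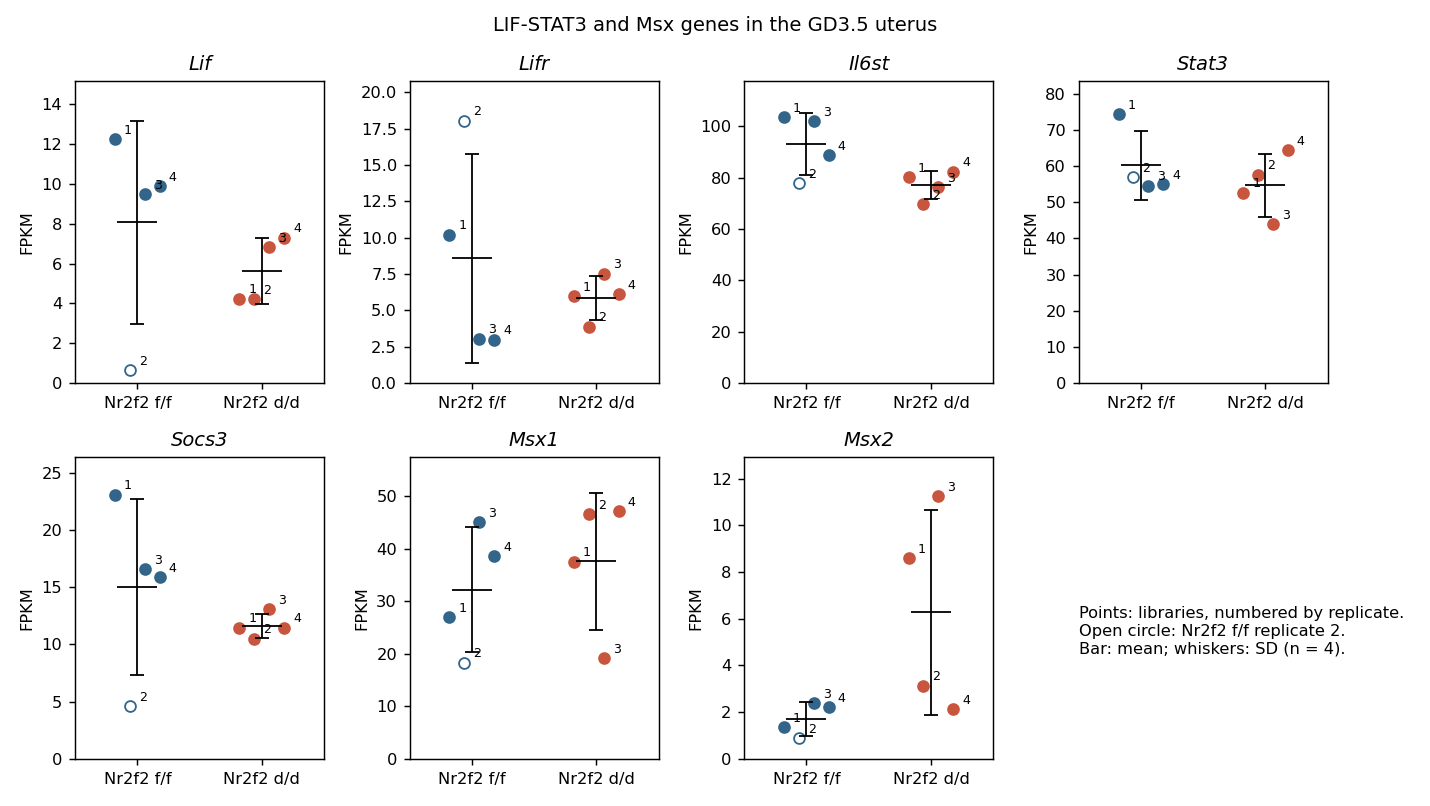
FPKM (vertical axes, linear, from 0) of the 7 members in each library, numbered by replicate, for Nr2f2 f/f in blue and Nr2f2 d/d in red. Horizontal bars are means and whiskers SD (n = 4 per group). Nr2f2 f/f replicate 2, drawn as an open circle, was the lowest of the 8 libraries for Lif, Socs3, Msx1 and Msx2 and the highest for Lifr, at 18.1 FPKM.

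Lif, the ligand (chr11:4257557-4272514, plus strand), stood at 12.2, 0.647, 9.48 and 9.86 FPKM in Nr2f2 f/f replicates 1 to 4. It stood at 4.24, 4.21, 6.83 and 7.30 FPKM in the mutants (replicates 1 to 4). The 4 mutant libraries lay below 3 of the controls and above the fourth, Nr2f2 f/f replicate 2, which was 16.3-fold below the mean of the other controls and held about 172 Lif fragments. The means were 8.06 ± 5.09 (SD, n = 4) in Nr2f2 f/f and 5.64 ± 1.65 FPKM (SD, n = 4) in Nr2f2 d/d. Between the groups, Lif differed by a log2 fold change of -0.06 ± 0.722 (SE, 95% interval -1.72 to 1.60, adjusted p = 0.972 by limma, exact permutation p = 1.0, two-sided). On the linear scale this interval ran from 0.304-fold to 3.02-fold. Without Nr2f2 f/f replicate 2, the control mean was 10.5 ± 1.49 FPKM (SD, n = 3) and the log2 fold change -0.88 ± 0.216 (SE, 95% interval -1.38 to -0.37). Its unadjusted p by limma was then 0.00449 and its adjusted p 0.0852. The exact permutation p was 0.0571, the smallest that 35 arrangements of 3 and 4 libraries allow, against 0.0286 for the 70 arrangements of 4 and 4.

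The markers of the glands, the source of LIF, also set Nr2f2 f/f replicate 2 apart. The sum of 12 gland markers was 634, 3384, 267 and 188 FPKM in the controls (replicates 1 to 4) and 156 to 351 FPKM in Nr2f2 d/d, and Gm4846 was at 0 in all libraries but 1. Of the 11 gland markers tested, 5 were highest of the 8 libraries in Nr2f2 f/f replicate 2 and 3 were lowest. The high ones included Spink1, a trypsin inhibitor, at 1332 FPKM there, 115 to 288 FPKM in the other controls and 0.729 to 24.4 FPKM in Nr2f2 d/d, the 1 gland marker of the 11 that was called lower. Among the low ones were Foxa2, the gland factor needed for Lif expression, at 3.24 FPKM there and 5.15 to 7.74 FPKM in the other controls, and Cxcl15, at 1.18 FPKM there and 6.83 to 17.6 FPKM in the others. The sum of 12 epithelial markers was 735 to 796 FPKM in the 4 controls and 1055 to 1205 FPKM in Nr2f2 d/d, with 2 of 12 called higher. The part of these markers in the Lif values was not tested.

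Lifr, the LIF-binding receptor chain (chr15:7090614-7197489, plus strand), spanned a 6.01-fold range in the controls. It measured 10.2, 18.1, 3.05 and 3.00 FPKM in the controls (replicates 1 to 4) and 5.99, 3.87, 7.54 and 6.12 FPKM in the mutants (replicates 1 to 4). All 4 mutant libraries lay inside the range of the controls, of which 2 were above and 2 below every mutant. The log2 fold change was -0.18 ± 0.539 (SE, 95% interval -1.42 to 1.06, adjusted p = 0.878 by limma), and it was 0.29 without Nr2f2 f/f replicate 2 (adjusted p = 0.728). No direction can be given for Lifr.

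Il6st, the gp130 chain (chr13:112464070-112510086, plus strand), was the most abundant member in both groups. Its levels were 104, 77.9, 102 and 88.8 FPKM in the controls (replicates 1 to 4) and 80.2, 69.8, 76.2 and 82.4 FPKM in the mutants (replicates 1 to 4). All mutant libraries lay below 3 of the controls, and Nr2f2 f/f replicate 2 lay among them. On the log2 scale the difference was -0.26 ± 0.107 (SE, 95% interval -0.51 to -0.02, adjusted p = 0.213 by limma), with an exact permutation p of 0.0857. Without Nr2f2 f/f replicate 2 it was -0.34 ± 0.0875 (SE), the groups did not overlap, and the adjusted p was 0.0917. These are 0.834-fold in the 8 libraries and 0.788-fold in the 7. The endothelial markers were lower in the same libraries, and their part in the Il6st values was not tested.

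Stat3, the transcription factor that the receptor activates (chr11:100885098-100939540, minus strand), was second in abundance to Il6st. It measured 74.4, 56.9, 54.5 and 55.0 FPKM in the controls (replicates 1 to 4) and 52.6, 57.6, 43.9 and 64.4 FPKM in the mutants (replicates 1 to 4). The groups overlapped. Its log2 fold change was -0.14 ± 0.143 (SE, 95% interval -0.47 to 0.19, adjusted p = 0.609 by limma) and -0.16 without Nr2f2 f/f replicate 2 (adjusted p = 0.596), in a range from -0.22 to -0.04 when any 1 library was dropped. These are levels of the transcript, and phosphorylated STAT3 was not measured in these libraries.

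Socs3, the feedback inhibitor that STAT3 induces (chr11:117966079-117970047, minus strand), followed the order of Lif closely. Its levels were 23.1, 4.58, 16.6 and 15.9 FPKM in the controls (replicates 1 to 4) and 11.4, 10.5, 13.1 and 11.5 FPKM in the mutants (replicates 1 to 4). As with Lif, all 4 mutant libraries lay below 3 of the controls and above Nr2f2 f/f replicate 2, which was 4.04-fold below the mean of the other controls. Over all 8 libraries the log2 fold change was -0.16 ± 0.422 (SE, 95% interval -1.13 to 0.81, adjusted p = 0.859 by limma). Without Nr2f2 f/f replicate 2 it was -0.63 ± 0.140 (SE, 95% interval -0.96 to -0.30, p = 0.00252 and adjusted p = 0.0689 by limma), with an exact permutation p of 0.0571. Socs3 had the smallest adjusted p of the 7 members in that fit, and it too stayed above 0.05.

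**Figure D2:**
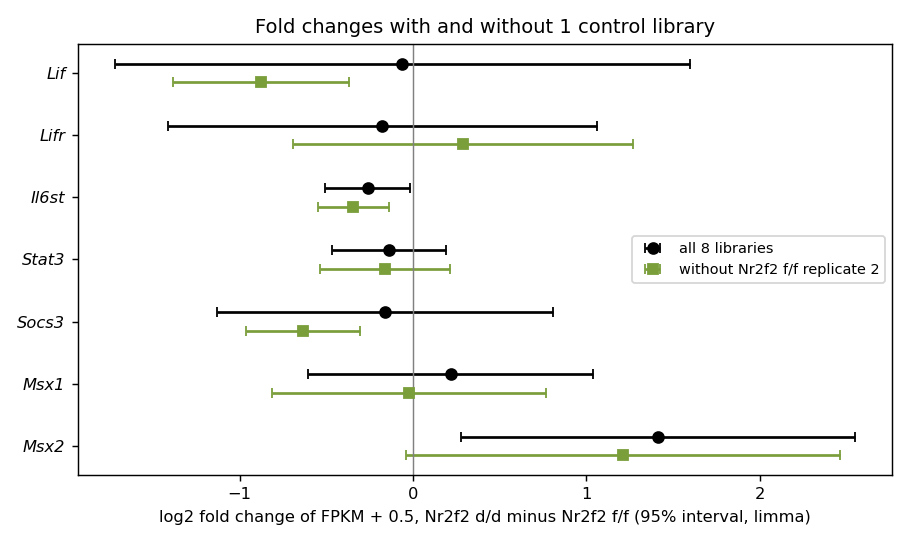
Log2 fold changes (horizontal axis, log2 of FPKM + 0.5, Nr2f2 d/d minus Nr2f2 f/f) of the 7 members with 95% intervals from limma, for all 8 libraries (black circles) and without Nr2f2 f/f replicate 2 (green squares). The interval of Lif, -1.72 to 1.60 with all libraries, became -1.38 to -0.37 without that library, while Lifr, Stat3 and Msx1 covered 0 in both fits. Socs3 covered 0 only with all libraries, and Msx2 only without that library (-0.04 to 2.46).

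Socs3 and Lif varied together from library to library. The Pearson correlation of their log2 levels was 0.967 over the 8 libraries and 0.972 for the deviations from the group means, and Socs3 was the gene of all tested with the pattern most like that of Lif. Nr2f2 f/f replicate 1 was the highest library and Nr2f2 f/f replicate 2 the lowest for both genes. Without Nr2f2 f/f replicate 2, an alternative chosen after the data were seen, the correlation of Lif and Socs3 was 0.892 over 7 libraries. Il6st had correlations of 0.594 with Lif and 0.673 with Socs3, and of 0.856 and 0.889 without that library. Lif and Lifr had a correlation of -0.608, with Nr2f2 f/f replicate 2 at the lowest Lif and the highest Lifr, and of 0.104 without that library, which thus decided its sign. Stat3 showed correlations of 0.193 with Lif and 0.256 with Socs3, and of 0.421 and 0.468 without it. The 8 points share library totals and 1 library far from the rest, so these values are descriptions without a test.

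**Figure D3:**
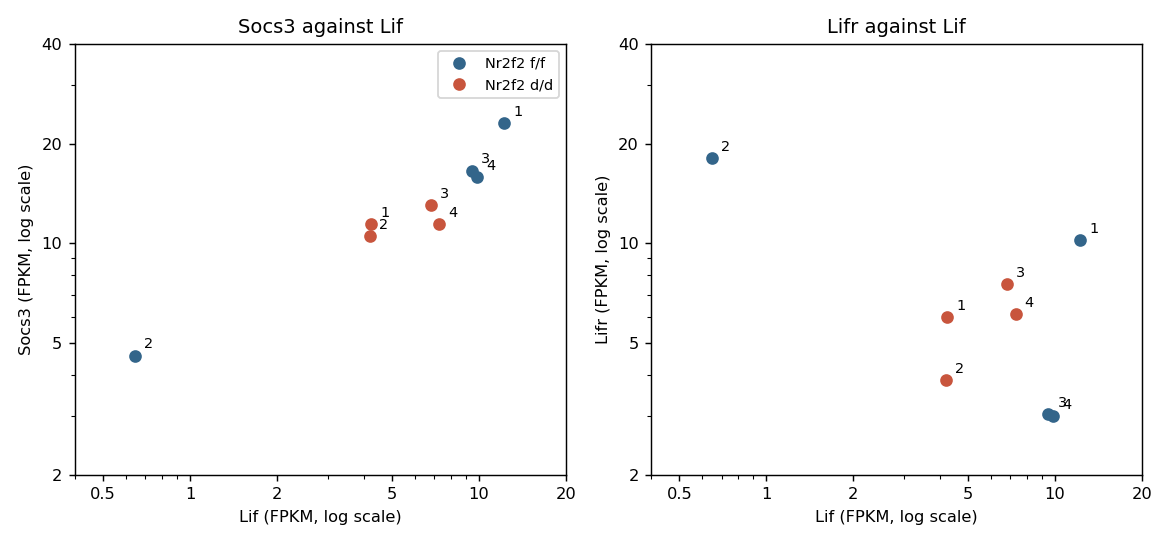
Socs3 (left) and Lifr (right) against Lif in the 8 libraries, in FPKM on log axes, with Nr2f2 f/f in blue and Nr2f2 d/d in red and points numbered by replicate. Socs3 increased with Lif (r = 0.967 on the log2 scale, 8 libraries), whereas Lifr was highest, at 18.1 FPKM, where Lif was lowest, at 0.647 FPKM, in Nr2f2 f/f replicate 2. Without that library the correlations were 0.892 and 0.104.

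Msx1, the more abundant of the Msx genes (chr5:37820485-37824583, minus strand), spread over similar ranges in both groups. It measured 26.9, 18.3, 45.0 and 38.6 FPKM in the controls (replicates 1 to 4) and 37.5, 46.5, 19.1 and 47.1 FPKM in the mutants (replicates 1 to 4). The groups overlapped, and the lowest values of the groups were those of Nr2f2 f/f replicate 2 and Nr2f2 d/d replicate 3, the 2 libraries that stood apart. The log2 fold change was 0.22 ± 0.357 (SE, 95% interval -0.60 to 1.04, adjusted p = 0.769 by limma), and it was -0.02 without Nr2f2 f/f replicate 2 (adjusted p = 0.976) and 0.51 without Nr2f2 d/d replicate 3 (adjusted p = 0.383).

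Msx2 (chr13:53466884-53473074, minus strand) was the least abundant member in the controls and had the largest fold difference of the 7. Its levels were 1.35, 0.886, 2.39 and 2.21 FPKM in Nr2f2 f/f replicates 1 to 4, the lowest of which rests on about 178 fragments. In Nr2f2 d/d replicates 1 to 4 they were 8.59, 3.13, 11.2 and 2.12 FPKM. Of the mutant libraries, 3 lay above all controls, whereas Nr2f2 d/d replicate 4 lay inside their range. The means were 1.71 ± 0.712 and 6.27 ± 4.37 FPKM (SD, n = 4 each). Msx2 had a log2 fold change of 1.41 ± 0.496 (SE, 95% interval 0.27 to 2.55, p = 0.0209 and adjusted p = 0.163 by limma, exact permutation p = 0.0857, two-sided). Without Nr2f2 f/f replicate 2 it was 1.21 (adjusted p = 0.259), without Nr2f2 d/d replicate 3 it was 1.06 (adjusted p = 0.257), and without Nr2f2 d/d replicate 4 it was 1.78, with groups that did not overlap and an adjusted p of 0.0868. Msx1 and Msx2 had a correlation of -0.03 over the 8 libraries and -0.47 without Nr2f2 f/f replicate 2, and Nr2f2 d/d replicate 3, the highest for Msx2, was next to the lowest for Msx1.

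In order of their mean level per length in Nr2f2 f/f, the members were Il6st (93.1 FPKM), Stat3 (60.2 FPKM), Msx1 (32.2 FPKM), Socs3 (15.0 FPKM), Lifr (8.58 FPKM), Lif (8.06 FPKM) and Msx2 (1.71 FPKM). The ranges of Il6st and Stat3 did not overlap, nor did those of Stat3 and Msx1, but each later neighbour in this order overlapped with the next. In Nr2f2 d/d the order was Il6st (77.1 FPKM), Stat3 (54.6 FPKM), Msx1 (37.6 FPKM), Socs3 (11.6 FPKM), Msx2 (6.27 FPKM), Lifr (5.88 FPKM) and Lif (5.64 FPKM). There the ranges did not overlap between Il6st and Stat3 or between Msx1 and Socs3, and the other neighbours overlapped. The controls other than Nr2f2 f/f replicate 2 had Lif (10.5 FPKM) above Lifr (5.42 FPKM), whose ranges overlapped, and no other neighbours overlapped, with Msx2 last at 1.99 FPKM.

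The genes with the log2 pattern most like each member, by Pearson correlation over the 8 libraries, were named as a description. For Lif they were Socs3 (0.967), Klhl29 (0.960) and Gtf3c5 (0.954), and for Socs3 they were Msra (0.975), Ctnnbl1 (0.972) and Lif. Lifr was followed most closely by Pcsk6 (0.975), a proprotein convertase, St14 (0.972), the epithelial protease matriptase, and Capg (0.966). Il6st was nearest to Igfbp7 (0.949), Sh2d5 (0.943) and Mrm3 (0.943), and Stat3 to Fryl (0.968), Ggt6 (0.968) and Zfp7 (0.964). Msx1 was nearest to Micall1 (0.989), Lmntd2 (0.981) and Snx8 (0.977), and Msx2 to Tbc1d10b (0.986), Fcgbp (0.983) and Eaf2 (0.982). The correlations of the deviations from the group means lay from 0.900 to 0.992 for these pairs, and the correlations without Nr2f2 f/f replicate 2 from 0.818 to 0.986.

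The other genes of these pathways were taken from 9 lists of 103 genes, of which 89 were tested. Nr2f2 d/d had higher levels of 6 and lower levels of 2 at the adjusted threshold, 8 of the 89 (8.99%) in all, against 2.62% of all genes tested. The lists were written with earlier results of these data known, and the study itself had reported Hand2, among the 8, as lower. No conclusion is therefore drawn from these 2 shares. At an unadjusted p under 0.05, the share of all genes was 21.2%. The median log2 fold change over all genes tested was -0.02. By limma, 0 of the 4 gp130 cytokines tested and 0 of the 4 partner receptors tested passed, with 0 and 1 at an unadjusted p under 0.05 and list medians of 0.23 and -0.28. Ctf1, cardiotrophin 1, another ligand of LIFR and gp130, differed by 0.72 on the log2 scale (adjusted p = 0.394 by limma), or by 0.37 without Nr2f2 f/f replicate 2. Ebi3, a subunit shared by IL-27 and IL-35, differed by 0.38 (adjusted p = 0.341 by limma), or by 0.19 without Nr2f2 d/d replicate 1. Of the receptors, Il27ra differed by -0.41 on the log2 scale (adjusted p = 0.151 by limma) and Il11ra1, the IL-11 receptor needed for decidualization, by 0.27 (adjusted p = 0.319). Without Nr2f2 f/f replicate 2 these were -0.35 and 0.16. Il6, Il11, Osm, Cntf, Il27 and Cntfr were under the filter.

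Among 11 JAK kinases, other STATs and SHP2, 1 passed the threshold and was higher in Nr2f2 d/d. Stat5a, which transmits prolactin and growth hormone signals, was 8.26, 6.74, 8.55 and 8.07 FPKM in Nr2f2 f/f and 14.1, 13.0, 12.8 and 13.6 FPKM in Nr2f2 d/d, with groups that did not overlap. It rose by 0.73 on the log2 scale (SE 0.0855, adjusted p = 0.00894 by limma), and it passed in all 8 fits that left out 1 library. Stat3 and Stat5a are neighbours on chromosome 11 and share 0.756% of the exon bases of Stat3 on opposite strands. Jak1, the kinase most used by gp130, differed by -0.36 on the log2 scale (adjusted p = 0.178). The list median was 0.05.

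Of 14 feedback inhibitors, 1 passed, again higher. Cish, a SOCS family member induced by STAT5, was 6.99, 4.65, 6.46 and 4.94 FPKM in Nr2f2 f/f and 11.2, 10.1, 8.73 and 8.60 FPKM in Nr2f2 d/d. The groups did not overlap, and it rose by 0.71 on the log2 scale (adjusted p = 0.0481 by limma). Its adjusted p was above 0.05 in each of the 8 fits that left out 1 library, and 0.0723 without Nr2f2 f/f replicate 2. The summed T and NK cell markers were also higher in all 4 mutant libraries, and their part was not tested. Socs4 differed by -0.52 on the log2 scale (adjusted p = 0.0806) and the phosphatase gene Ptpn1 one of 0.23 (adjusted p = 0.114), and the list median was -0.04.

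Of 20 STAT3 target genes known from other cells, 1 rose and 1 fell. Myc, a growth-promoting transcription factor, was 51.7, 66.8, 49.6 and 55.1 FPKM in Nr2f2 f/f and 26.3, 32.6, 28.7 and 28.2 FPKM in Nr2f2 d/d. It fell by 0.93 on the log2 scale (SE 0.109, adjusted p = 0.00887 by limma) and passed in all 8 fits that left out 1 library. A2m, the protease inhibitor alpha-2-macroglobulin, was 0.549 to 3.92 FPKM in Nr2f2 f/f and 13.6 to 129 FPKM in Nr2f2 d/d, and rose by 3.86 on the log2 scale (adjusted p = 0.0356). It passed in 2 of those 8 fits and had an adjusted p of 0.0584 without Nr2f2 f/f replicate 2. The part of the neutrophil markers, which went both ways and whose sums overlapped between the groups, was not tested. Il4ra, an interleukin 4 receptor chain, differed by 0.83 on the log2 scale (adjusted p = 0.0815) and Irf1, an interferon-responsive factor, one of 0.30 (adjusted p = 0.126). The list median was 0.04, or -0.08 without Nr2f2 f/f replicate 2, and the members are not in the list.

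By limma, 0 of the 9 tested uterine genes that respond to LIF or fail in its absence passed. Of the 9, 2 had an unadjusted p under 0.05, as did 21.2% of all genes tested. The list median was 0.01, or -0.05 without Nr2f2 f/f replicate 2. Igfbp3, a binding protein of insulin-like growth factors, was 183, 912, 42.8 and 44.4 FPKM in Nr2f2 f/f and 19.7 to 33.0 FPKM in Nr2f2 d/d. Its groups did not overlap, with a log2 fold change of -2.36 (SE 0.901, adjusted p = 0.193 by limma), and -1.44 without Nr2f2 f/f replicate 2 (adjusted p = 0.177). A list of 7 genes upstream of uterine Lif was written from general knowledge. The list median was -0.02, or -0.25 without Nr2f2 f/f replicate 2. Of the 7, Hand2 alone passed and fell by 0.71 on the log2 scale (adjusted p = 0.0388 by limma, and 0.0634 without Nr2f2 f/f replicate 2). It passed in 2 of the 8 fits that left out 1 library. A link from Hand2 to Lif was not tested. Hand2, a stromal factor that restrains estrogen-driven growth of the epithelium, was 46.6 to 57.7 FPKM in Nr2f2 f/f and 23.8 to 36.6 FPKM in Nr2f2 d/d. The estrogen receptor gene Esr1, through which estrogen induces Lif, differed by 0.31 on the log2 scale (adjusted p = 0.151), and Trp53, which encodes p53, an activator of Lif, one of -0.27 (adjusted p = 0.211). Foxa2, required in glands for Lif, was 5.77 and 5.48 FPKM on average and differed by -0.02 on the log2 scale (adjusted p = 0.971), or by -0.25 without Nr2f2 f/f replicate 2.

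Beside the Msx genes, 3 of 5 tested genes of DLX and other related homeobox factors rose, with a list median of 0.56. Dlx5 was 18.2 to 22.4 FPKM in Nr2f2 f/f and 27.4 to 33.0 FPKM in Nr2f2 d/d and rose by 0.56 on the log2 scale (adjusted p = 0.0262 by limma). Its neighbour Dlx6, which is transcribed from the same locus, was 8.58 to 9.73 FPKM in Nr2f2 f/f and 12.7 to 15.8 FPKM in Nr2f2 d/d and rose by 0.59 (adjusted p = 0.0251). Barx2 was 2.27 to 4.27 FPKM in Nr2f2 f/f and 5.70 to 8.20 FPKM in Nr2f2 d/d and rose by 0.94 (adjusted p = 0.046, and 0.0682 without Nr2f2 f/f replicate 2). Dlx5, Dlx6 and Barx2 passed in 2, 3 and 1 of the 8 fits that left out 1 library. Emx2 differed by 0.43 on the log2 scale (adjusted p = 0.177) and Satb1 one of -0.26 (adjusted p = 0.234). Msx3, Dlx1 to Dlx4 and Barx1 were at or near 0 FPKM. Of the epithelial markers, 11 of 12 also had a positive log2 fold change (median 0.56, 2 called higher). Their sum was 735 to 796 FPKM in Nr2f2 f/f and 1055 to 1205 FPKM in Nr2f2 d/d. Msx2 did not follow that sum in each library, as Nr2f2 d/d replicate 4, at 2.12 FPKM, lay inside the control range of Msx2. The part of these markers in these results was not tested.

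By limma, 0 of 15 signals tied to uterine Msx genes passed, and the list median was 0.24. An unadjusted p under 0.05 was found for 4 of the 15, and for 21.2% of all genes tested. Wnt5a, a WNT ligand that the Msx genes restrain in the uterus and also 1 of the 12 stromal markers, was 34.0, 20.6, 36.5 and 35.2 FPKM in Nr2f2 f/f and 53.6, 48.5, 61.5 and 46.2 FPKM in Nr2f2 d/d. The groups did not overlap, and the log2 fold change was 0.75 (adjusted p = 0.0744 by limma), or 0.56 with an adjusted p of 0.0436 without Nr2f2 f/f replicate 2, in which fit it passed. Fgf18, a growth factor of the stroma, differed by 1.19 on the log2 scale (adjusted p = 0.0799) and groups that did not overlap, at 0.256 to 1.08 FPKM against 1.33 to 3.71 FPKM. The sum of the stromal markers, Wnt5a among them, was higher in the mutants while 6 of the 12 had a negative log2 fold change, and their part was not tested.

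**Figure D4:**
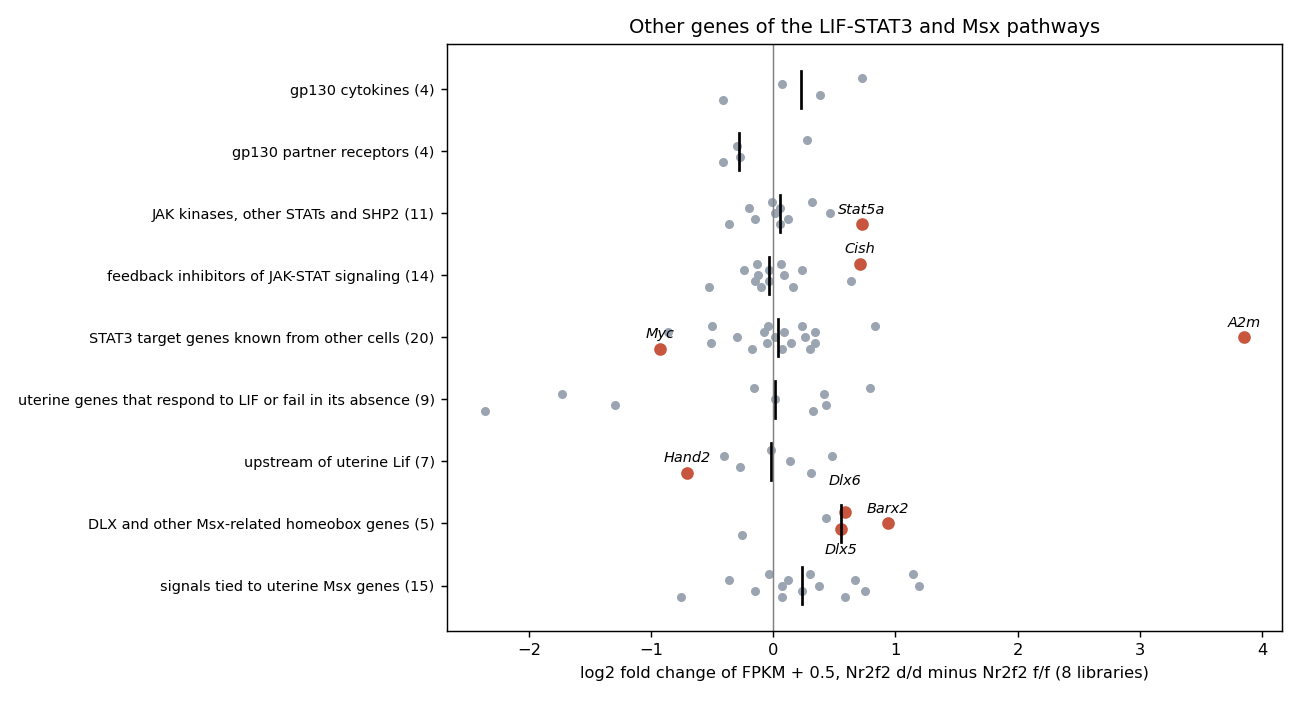
Log2 fold changes (horizontal axis, log2 of FPKM + 0.5, Nr2f2 d/d minus Nr2f2 f/f, 8 libraries) of the 89 other pathway genes tested, by list, with the number tested in parentheses. Each point is a gene, red points passed an adjusted p of 0.05 (limma) and vertical bars are list medians. Of the 8 that passed, Myc and Hand2 lay to the left of 0 and the other 6 to the right, A2m farthest at 3.86.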

How the data were processed

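The data are 8 RNA-seq libraries of whole mouse uterus. The authors deposited FPKM per gene, after trimming with cutadapt 1.12, alignment to mm10 with STAR 2.5.2b and counting with featureCounts 1.5.0-p1. Cufflinks 2.0.2 is also named in the submitters' processing notes, with no role. The formula of the FPKM, the gene annotation and the strand setting are not given in the sources used here. FPKM are relative to a library's total, so a few abundant transcripts shift all others. The study's test on counts was replaced by a test that suits FPKM.

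Values of log2(FPKM + 0.5), a scale that understates changes of low genes, were fitted with limma 3.58.1 in R 4.3.3 (lmFit, eBayes with trend, two-sided, Benjamini-Hochberg). Single genes were compared by exact permutation tests over all arrangements. The fit was tested on simulated data. Library totals were recovered from genes of 1 exon whose values become whole fragments, within 0.1 fragment, at 1 total for 89.5% to 100% of 19 to 29 genes. Fragment counts cover counting error only. Positions came from GENCODE vM21 and windows from RefSeq, read with Python 3.11.15. Replicate numbers are those of the titles and differ from those in the descriptions.

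The members and lists were chosen with earlier results of these data known. Named are the members, Nr2f2, in each list the genes past an adjusted p of 0.05 and otherwise the 2 with the smallest p, and the 3 genes most correlated with each member. Some genes that this rule names are not reported here. Foxa2 and the cell type markers given beside a result were chosen after their values were seen. The alternatives were 0.1 or 1 added before the log2, no filter or one at 1 FPKM, quantile or median-ratio normalization, a robust or trend-free eBayes, the threshold of the study's methods, the replicate number as a block and each library left out.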

Additional observations from a re-analysis of the deposited data

Results flagged for a closer look

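Among 34 named genes in 2 groups each, 68 groups in all, 5 groups held a library whose gap to the nearest other exceeded Dixon's limit for 4 samples as a share of the group's range in FPKM, on the linear scale, and chance gives this in about 1 in 20 groups. Of the members, Stat3 was 74.4 FPKM in Nr2f2 f/f replicate 1 and 54.5 to 56.9 FPKM in the other controls. Nr2f2 was 6.90 FPKM in Nr2f2 d/d replicate 3 and 9.42 to 9.74 FPKM in the other mutants. Il4ra was 35.4 FPKM in Nr2f2 d/d replicate 3 and 19.9 to 21.7 FPKM in the other mutants. Igfbp3 was 912 FPKM in Nr2f2 f/f replicate 2 and 42.8 to 183 FPKM in the other controls. Wnt5a was 20.6 FPKM in Nr2f2 f/f replicate 2 and 34.0 to 36.5 FPKM in the other controls.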

How the results depend on the processing

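For the members, 0 passed the adjusted threshold in any fit, and 1, Msx2 at 1.41, passed the threshold of the study's methods (unadjusted p under 0.05 and fold change of 1.4). The Msx2 call holds for the fit of all 8 libraries. Without Nr2f2 f/f replicate 2, Lif at -0.88 and Socs3 at -0.63 passed the threshold of the study's methods, and Msx2 at 1.21 did not. Leaving out 1 library moved the log2 fold change of Lif from -0.88 to 0.28, of Lifr from -0.51 to 0.29, of Socs3 from -0.63 to 0.10 and of Msx1 from -0.023 to 0.51. With 0.1 added before the log2 the log2 fold change of Lif was 0.030. Il6st, Stat3 and Msx2 kept their direction in every fit, and Nr2f2 its direction and, but for the replicate block, its call. Leaving out 1 library gave 42 to 348 genes past the adjusted threshold, against 375, namely 62 without Nr2f2 f/f replicate 1, 208 without replicate 3 and 95 without replicate 4, and 57 without Nr2f2 d/d replicate 1 and 42 without replicate 2. It gave 2 to 7 of the other pathway genes, against 8, and 4 passed with no filter on low values. With no filter, Cish, A2m, Hand2 and Barx2 missed the threshold (adjusted p 0.0514 to 0.068 by limma), and Cish also with robust eBayes (0.0501). Median-ratio scaling gave 191 higher of 376 calls, against 156 of 375.

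Libraries with the same number in the titles had correlations of deviations from -0.204 to 0.0453, and those with the same number in the table's columns, a check added after the data were seen, from -0.204 to 0.149 over 3 pairs, so neither was taken as pairs. With the replicate block, 1 gene and 0 of the other pathway genes passed, and Nr2f2, at -1.39, had an adjusted p of 0.0714 by limma. The causes were not tested. Every member value rested on at least about 172 fragments.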

Other observations

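Several genes of the gp130 and LIF response lists were under the filter on low values and were not tested. Clcf1, a cytokine that signals through LIFR and gp130 and was tested, averaged 15.0 FPKM in Nr2f2 f/f and 9.06 FPKM in Nr2f2 d/d, a difference of -0.41 on the log2 scale (adjusted p = 0.632 by limma). This rested on Nr2f2 f/f replicate 2, at 32.5 FPKM, and without it the log2 fold change was 0.05. Osm was 0.136 to 0.269 FPKM in Nr2f2 f/f and 0.248 to 0.453 FPKM in Nr2f2 d/d, with overlapping groups. Il6 and Il11, which also signal through gp130, did not exceed 0.356 and 0.272 FPKM in any library. Ereg, an epidermal growth factor family ligand, did not exceed 0.226 FPKM. These genes were named after their values were seen.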
